A study of Homo sapiens with 2 samples.

Results

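The genes described here are 10 immediate early, AP-1 and MYC genes: *FOS*, *FOSL1*, *FOSL2*, *JUN*, *JUNB*, *JUND*, *EGR1*, *ATF3*, *MYC* and *IER3*. They were taken by gene symbol from a table of Flag-RBM47 HITS-CLIP clusters, and all 10 had at least 1 cluster. Of the RefSeq protein-coding genes, 36.2% had one. The 10 genes held 62 of the 233546 clusters and 1275 tags, or 0.0287% of all tags in the table. In HITS-CLIP, ultraviolet light joins a protein to RNA in contact with it, and the RNA pieces that come down with the protein are read; a tag is a unique read and a cluster is a stretch of overlapping tags. The cells were MDA231-BrM2a, a non-clonal population with brain metastatic activity that was derived from MDA-MB-231, a human breast cancer line. They carried wild-type RBM47 with a Flag tag under a doxycycline-inducible promoter, and doxycycline was given at 1 ng/ml over 3 days. There was 1 group with 2 replicates and no other condition, so no groups were compared. Replicate 1 held 999047 tags in the table and replicate 2 held 3489697. Neither a control pull-down nor the RNA level of these genes was analysed here, so a gene with many tags and a gene with abundant RNA cannot be told apart.

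RBM47 is an RNA-binding protein with RNA recognition motifs that acts on splicing and on mRNA abundance. Immediate early genes are transcribed within minutes of a growth factor or stress signal, without new protein synthesis, and most of their mRNAs decay rapidly. That decay depends in part on AU-rich elements in the 3'UTR, where short AUUUA motifs are read by proteins that shorten or extend the life of the mRNA. AP-1 is a dimer of a JUN family protein (JUN, JUNB, JUND) with a FOS family protein (FOS, FOSL1, FOSL2) or an ATF protein such as ATF3, joined through a leucine zipper.

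Because these mRNAs are known for AU-rich elements, the 3'UTR of the canonical GENCODE transcript of each gene was searched on the sense strand for ATTTA, written with T for U. Each of the 10 3'UTRs held it, which is common: among 3'UTRs within 25% of the length of the *FOS* 3'UTR in genes with clusters, 82.4% did. The longer TTATTTATT, which contains ATTTA, was found in *FOS* and *FOSL2*, against 6.03% and 22.3% of 3'UTRs of like length. For 4 genes the 30 bases with the most copies of ATTTA are printed 5' to 3' from the GENCODE transcript, and the capitals mark ATTTA. They are shown because *FOS* and *IER3* had many copies for their length, *FOSL2* had the longest 3'UTR and *EGR1* the most tags. On GRCh37 they lie in 3'UTRs at chr14:75748754-75748783 on the plus strand (*FOS*), chr6:30711428-30711457 on the minus strand (*IER3*), chr2:28639222-28639251 on the plus strand (*FOSL2*) and chr5:137804742-137804771 on the plus strand (*EGR1*). The tag positions are on an older build, hg18, so the stretches were not placed against the clusters.
FOS: gttttattgtgtttttaATTTATTTAttaa
IER3: tcctaattaatATTTAtatgtATTTAtgta
FOSL2: ATTTAttttattATTTAttttaaatgttta
EGR1: tatttttttaactgaaaatgtaaATTTAta

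*IER3* held 6 copies of ATTTA in a 3'UTR of 737 nt, a number reached by 5.53% of 3'UTRs of like length, and *FOS* held 5 in 806 nt, reached by 13.0%. In the other 8 genes the number was reached by 38.5% to 91.0% of such 3'UTRs. *EGR1*, *FOSL1* and *JUND* had 1 copy each. Runs of T, counted as overlapping copies of TTTTT, were set against the median of 3'UTRs of like length. They were above it in *EGR1* (25 against 9), *MYC* (28 against 16), *JUND* (14 against 5), *JUNB* (9 against 3), *FOSL2* (43 against 38) and *FOS* (6 against 5). They were below it in *FOSL1* (2 against 6), *JUN* (5 against 9), *ATF3* (2 against 9) and *IER3* (0 against 5), and 89.96% of 3'UTRs of the length of *IER3* had at least 1. Genes with many and with few tags were thus found on either side. For *MYC* the counts and the genes of like length rest on a model 3'UTR of 1993 nt. Its 3'UTR clusters lie between 128822467 and 128822860 (hg18), so the letters searched reach beyond the stretch with tags. A match is a description of the letters and was not tested as a binding site.

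Most tags of the 10 genes lay in 3'UTRs. Clusters labelled 3'UTR alone numbered 39 of 62 and held 904 tags, 70.9% (Wilson 95% interval 68.3 to 73.3), with 66.7% in replicate 1 and 71.9% in replicate 2. Over all clusters with a gene the 3'UTR held 41.3% of the tags. Each of the 10 genes had a 3'UTR cluster, against 77.9% of the 7712 genes in the table. The median 3'UTR share of a gene's tags was 90.3% in the 10 genes and 52.7% in all genes. Coding sequence (CDS) held 252 tags in 5 genes, clusters labelled CDS and 3'UTR 57 tags, and clusters labelled CDS and 5'UTR 52 tags. The single intron cluster, in *FOSL1*, held 5 tags, or 0.392%, where introns held 27.5% of the tags over all genes. An intron cluster was present in 54.2% of all genes. The canonical transcripts of *JUN*, *JUNB* and *JUND* have 1 exon, and the median summed intron length over the 10 genes was 993.5 nt against 37622 nt in all genes with a transcript model.

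**Figure D1:**
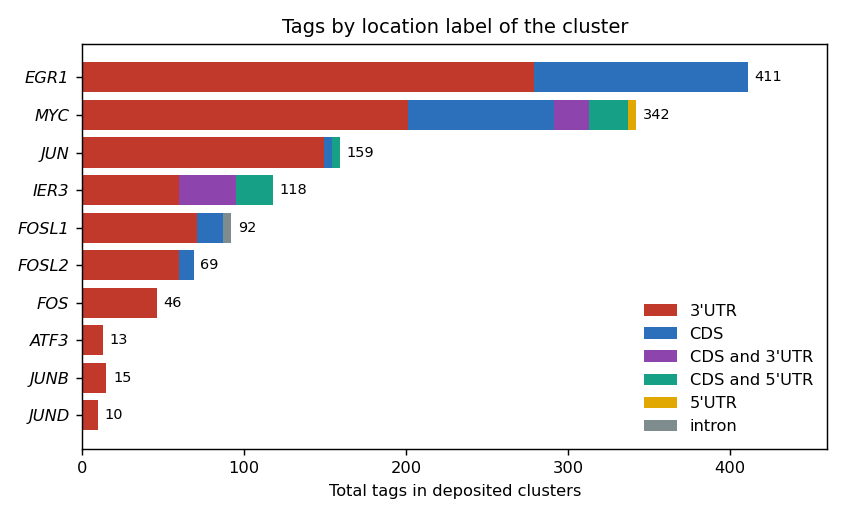
Total tags per gene (x axis, linear) for the 10 genes (y axis), with each bar divided by the location label of the clusters and the total printed at its end. The 3'UTR label makes up the largest part in every gene, and EGR1 (411 tags) and MYC (342 tags) carry most of the CDS tags.

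The tags were unevenly spread over the genes. *EGR1* and *MYC* together held 753 of the 1275 tags, or 59.1%. Genes were then counted whose clusters of at least 10 tags summed to more than 100 tags. This held for *EGR1* with 384, *MYC* with 317, *JUN* with 149 and *IER3* with 111 tags, that is 4 of 10 genes, and for 39.9% of all genes, so the share in the 10 genes was near the background. At least 1 cluster of 10 tags was present in 9 of the 10 genes, all but *ATF3*, and in 72.6% of all genes. The median gene of the 10 had 80.5 tags, and the median of all genes was 96. Replicate 2 alone gave 3 genes with more than 100 tags and replicate 1 alone gave 0.

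*EGR1* (Entrez gene 1958), a zinc finger transcription factor induced by growth factors through serum response factor, had 15 clusters with 411 tags. Replicate 1 held 74 tags and replicate 2 held 344 tags, or 74.1 and 98.6 tags per 1000000 tags of the replicate in the table (CPM), 86.3 ± 17.3 (SD, n = 2). Replicate 2 was the higher of the libraries. All *EGR1* clusters were on the plus strand of chromosome 5 (hg18), from 137830340 to 137832892, and they covered 61.9% of the length of the canonical transcript of 3137 nt. Tags were thus spread along the mRNA, and the largest cluster held 18.5% of them. That 3'UTR cluster, at 137832084 to 137832175, had 8 tags in replicate 1 and 68 in replicate 2. A CDS cluster at 137830858 to 137831229 had 14 and 57 tags, and with 71 tags in total it was above 97.6% of all CDS clusters. A second 3'UTR cluster at 137832202 to 137832318 had 5 and 44 tags. The 9 3'UTR clusters held 67.9% of the *EGR1* tags (Wilson 95% interval 63.2 to 72.2), with 58.1% in replicate 1 and 69.5% in replicate 2, and the 6 CDS clusters held 132 tags. The other 12 clusters had 5 to 37 tags each.

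*MYC* (Entrez gene 4609) encodes a transcription factor that binds DNA as a dimer with MAX and drives growth. Its 12 clusters, on the plus strand of chromosome 8 (hg18), held 342 tags and ran from 128817897 to 128822860. Replicate 1 held 77 tags and replicate 2 held 266, or 77.1 and 76.2 CPM, 76.6 ± 0.600 (SD, n = 2). On this scale the libraries were closer for *MYC* than for *EGR1*. A single 3'UTR cluster at 128822604 to 128822736 held 142 tags, 41.5% of the gene, with 35 tags in replicate 1 and 107 in replicate 2. It was the only one of the 62 clusters with at least 100 tags. At 1.08 tags per nt it was denser than 99.2% of all 3'UTR clusters in the table. The next in size were a CDS cluster at 128821855 to 128822176 with 17 and 35 tags, and a 3'UTR cluster at 128822811 to 128822860 with 6 and 22 tags. A cluster labelled CDS and 3'UTR, at 128822376 to 128822457, held 22 tags, and 1 labelled CDS and 5'UTR held 24. *MYC* was the only gene of the 10 with a cluster labelled 5'UTR alone, of 5 tags.

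**Figure D2:**
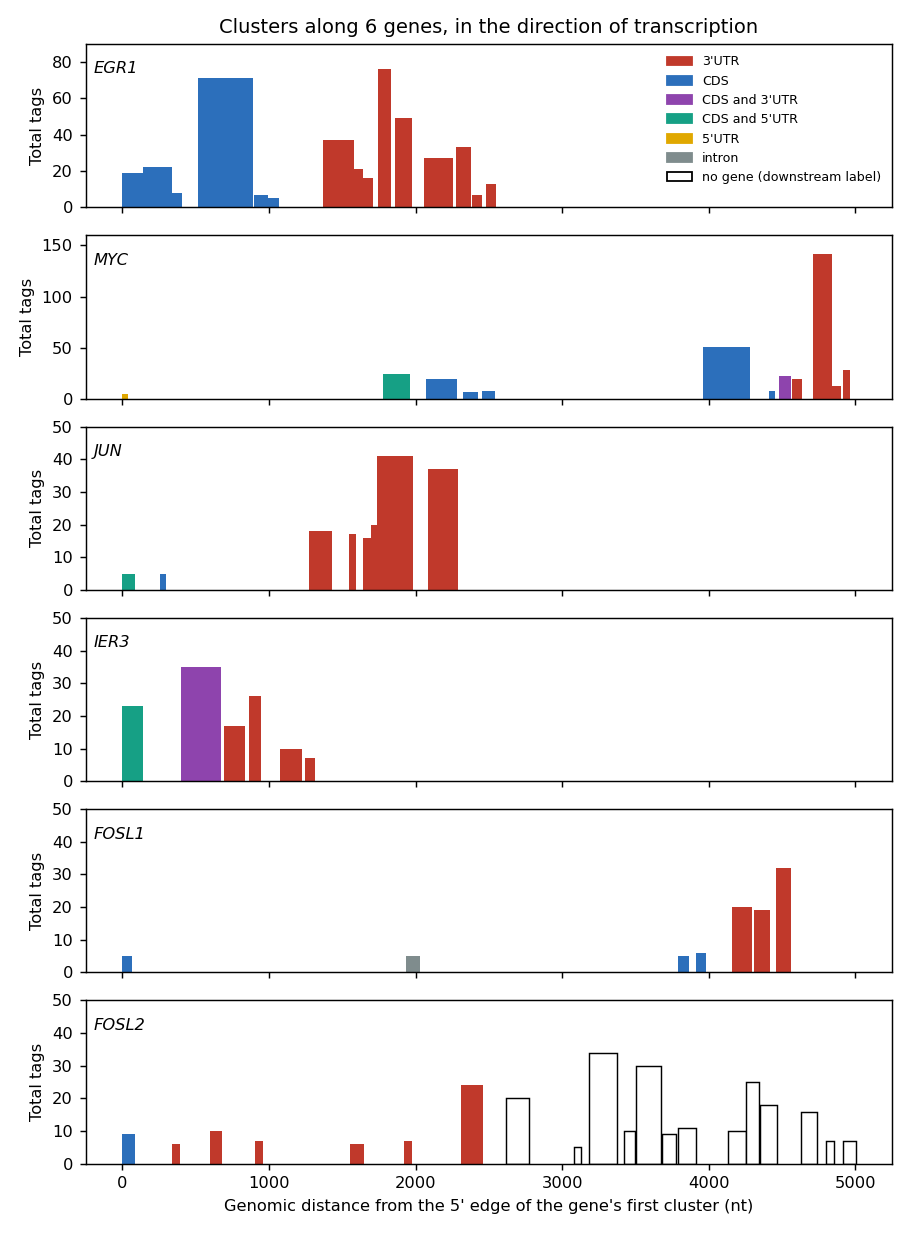
Clusters of EGR1, MYC, JUN, IER3, FOSL1 and FOSL2 placed by genomic distance in nt from the 5' edge of the gene's first cluster, in the direction of transcription (x axis), with total tags as height (y axis, scales differ) and colour for the location label; open bars beside FOSL2 are clusters with no gene. In MYC 1 cluster of 142 tags stands out near the 3' end, EGR1 is covered along its length, and the open bars beyond FOSL2 hold 202 tags against 69 in its own clusters.

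In the JUN family, *JUN* (Entrez gene 3725), the main AP-1 partner of FOS, had the most tags of the family. It had 8 clusters with 159 tags on the minus strand of chromosome 1 (hg18), from 59019059 to 59021347. Replicate 1 held 29 tags and replicate 2 held 137, or 29.03 and 39.3 CPM, 34.1 ± 7.23 (SD, n = 2). The 6 3'UTR clusters held 149 tags, 93.7% (Wilson 95% interval 88.8 to 96.5). The largest lay at 59019364 to 59019608 with 5 and 38 tags, the next at 59019059 to 59019265 with 7 and 30 tags, and the third at 59019606 to 59019653 with 6 and 18 tags. The last overlaps the first by a few bases, and its replicate tags exceed the authors' total of 20 by 4. *JUNB* (Entrez gene 3726), often a weaker activator than JUN, lies on the plus strand of chromosome 19, and its single 3'UTR cluster, of 39 nt, ran from 12764824 to 12764863 and had 2 and 13 tags. *JUND* (Entrez gene 3727), the more constitutively expressed member of the family, lies on the minus strand of the same chromosome, and its single 3'UTR cluster ran from 18251805 to 18251874 and had 2 and 8 tags. With 2 replicate 1 tags each, no finer statement on *JUNB* and *JUND* could be made at this depth.

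In the FOS family, all tags of *FOS* (Entrez gene 2353), the classical immediate early gene, were in 3 3'UTR clusters within 380 nt on the plus strand of chromosome 14. They held 6 and 20 tags at 74818358 to 74818559, 3 and 10 tags at 74818179 to 74818261, and 4 and 3 tags at 74818266 to 74818349, in replicate 1 and 2. The gene had 46 tags, or 13.01 and 9.46 CPM. *FOSL1* (Entrez gene 8061), encoding FRA-1, a FOS protein prominent in invasive breast cancer cells, had 7 clusters with 92 tags on the minus strand of chromosome 11, or 20.02 and 20.6 CPM. Its 3 3'UTR clusters, at 65416495 to 65416600, 65416762 to 65416897 and 65416637 to 65416745, held 32, 20 and 19 tags, and its 3 CDS clusters held 5 to 6 tags each. *FOSL2* (Entrez gene 2355), encoding FRA-2, lies on the plus strand of chromosome 2 and had 69 tags in 7 clusters, or 19.02 and 14.6 CPM. The largest, a 3'UTR cluster at 28490990 to 28491141, was the last of the gene and had 9 and 15 tags. The next were 3'UTR and CDS clusters of 10 and 9 tags, at 28489279 to 28489360 and at 28488679 to 28488763.

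Beyond the last *FOSL2* cluster the table lists 13 clusters on the same strand with no gene, which carry the label for downstream of a gene by up to 10 kb. They began 157 nt past it and ran from 28491298 to 28493681 on chromosome 2, with 37 tags in replicate 1 and 167 in replicate 2. Their total of 202 tags was 2.93 times that of the clusters named *FOSL2*, and 9 of them had at least 10 tags. The largest, at 28491864 to 28492054, had 8 and 26 tags. The replicate 1 share was 18.1% (Wilson 95% interval 13.5 to 24.0), against 27.1% (18.1 to 38.5) in the named clusters. The far end lay 4918 nt from the *FOSL2* CDS cluster, while the 3'UTR of the canonical GENCODE transcript is 4869 nt long. With these clusters *FOSL2* would have 271 tags, or 208 in clusters of at least 10 tags, and would pass 100. Of all 7712 genes, 371 had more tags in such clusters than in their own. No other gene of the 10 had a cluster without a gene within 10 kb on its strand. On the strand opposite to *JUN*, 7 clusters of 5 to 9 tags lay within 10 kb, with 51 tags in all.

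*ATF3* (Entrez gene 467), a stress-induced bZIP factor, lies on the plus strand of chromosome 1 and had 13 tags in 2 3'UTR clusters, of which 8 were at 210859888 to 210860002 and 5 at 210860187 to 210860255. With 3.003 and 3.15 CPM, its libraries were close, but the values rest on 3 and 11 tags. *IER3* (Entrez gene 8870), an immediate early gene that acts on cell survival, had 6 clusters with 118 tags on the minus strand of chromosome 6, from 30818993 to 30820308, which covered 70.01% of the length of its transcript of 1237 nt. Replicate 1 held 16 tags and replicate 2 held 102, or 16.02 and 29.2 CPM, so replicate 2 was the higher. A cluster labelled CDS and 3'UTR at 30819632 to 30819910 had 2 and 33 tags, a 3'UTR cluster at 30819363 to 30819443 had 3 and 23, and a cluster labelled CDS and 5'UTR at 30820168 to 30820308 had 6 and 17. The share of tags labelled 3'UTR alone was 50.8% (Wilson 95% interval 41.9 to 59.7), the lowest of the 10 genes, and the tags of the clusters with a double label cannot be divided here.

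**Figure D3:**
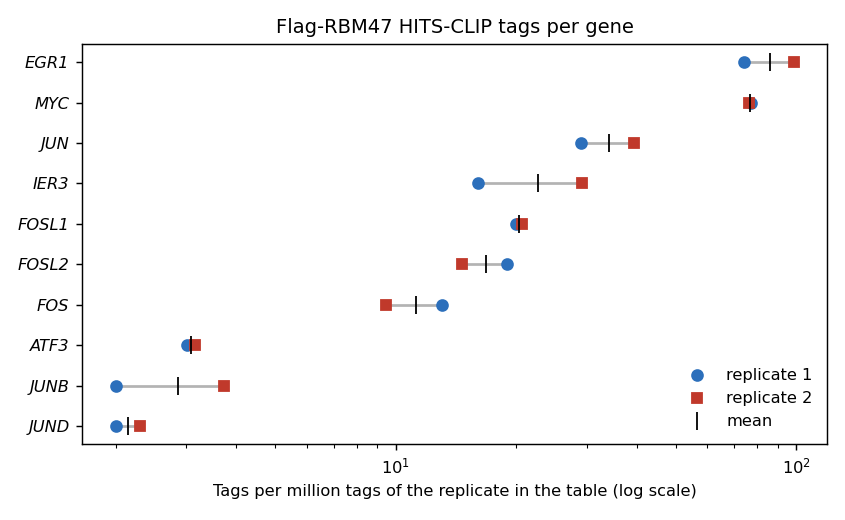
Tags per 1000000 tags of the replicate in the table, CPM (x axis, log scale) for each gene (y axis), with replicate 1 as circles, replicate 2 as squares and the mean of both as a tick. EGR1 and MYC lie between 74.1 and 98.6, JUNB, JUND and ATF3 lie below 4, and IER3 shows a wide gap between the libraries.

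Whether the libraries differed for these genes was tested with a two-sided exact binomial test of the replicate 1 share, adjusted after Benjamini and Hochberg over the whole table. Of the 10 genes 0 passed, with 2 at an unadjusted p under 0.05, *IER3* and *EGR1*, while 1.52% of all genes passed and 10.5% were at an unadjusted p under 0.05. The replicate 1 share was 13.6% in *IER3* (Wilson 95% interval 8.52 to 20.9; adjusted p = 0.366 in the exact binomial test) and 17.7% in *EGR1* (14.3 to 21.7; adjusted p = 0.407 in the exact binomial test), against 22.04% over all genes. Of the 62 clusters 0 passed, with 4 at an unadjusted p under 0.05, while 0.0111% of all clusters passed and 3.04% were at an unadjusted p under 0.05. A beta-binomial test also gave 0 genes and 0 clusters, with 1 and 4 at an unadjusted p under 0.05. With the expected share taken from clusters of at least 100 tags (20.8%), 0 of the 10 genes were under 0.05 in the exact test. With the median share over genes, or with genes of at least 30 tags alone, 2 were. In 29 of the 62 clusters replicate 1 had no more than 2 tags, so for single clusters a difference was often not detectable at this depth. The test compares these libraries and not conditions.

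To set the genes beside each other, the tags outside introns were divided by the length of the canonical transcript and given in CPM per kb. *EGR1* came first with 23.6 and 31.4 CPM per kb in replicates 1 and 2, then *MYC* with 20.7 and 20.5, *IER3* with 12.9 and 23.6, *FOSL1* with 10.6 and 11.6, and *JUN* with 8.91 and 12.1. *FOS* followed with 6.18 and 4.49, *FOSL2* with 2.83 and 2.18, *ATF3* with 1.55 and 1.62, *JUNB* with 1.09 and 2.04, and *JUND* with 1.04 and 1.19. The replicate ranges of neighbours overlapped for *MYC* and *IER3*, for *FOSL1* and *JUN*, for *ATF3* and *JUNB*, and for *JUNB* and *JUND*, so these pairs were not separated beyond the spread between replicates. The other neighbours did not overlap, although the replicate 2 value of *IER3* reached the replicate 1 value of *EGR1*. On this scale *EGR1* was above 84.98% of all genes with a transcript model and *JUND* above 27.1%. The median of the 10 genes was 7.91 and that of all genes 4.42 CPM per kb. The level of *FOSL2* leaves out the 13 clusters with no gene. That of *MYC* divides by a transcript of 3721 nt with a 3'UTR of 1993 nt, while its 3'UTR clusters lie between 128822467 and 128822860 (hg18). A shorter 3'UTR would raise the *MYC* level, so the order of *EGR1*, *MYC* and *IER3* depends on the transcript model. Per kb of cluster the order was another, and *JUNB*, with a single short cluster, came first with 385 total tags per kb of cluster. *MYC* followed with 248, *EGR1* with 212, *JUN* with 179, *JUND* with 145, *FOSL1* with 140, *IER3* with 136, *FOS* with 126, *FOSL2* with 119 and *ATF3* with 71.4. This scale leaves out the part of the transcript without clusters.

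The regions were also compared per length. In all 10 genes, and in both replicates, clusters labelled 3'UTR held more tags per kb of 3'UTR than clusters labelled CDS held per kb of CDS. Of the 6296 genes with tags in either region and both lengths, 84.1% showed that order. The density in 3'UTRs was 228 tags per kb in *EGR1*, 116 in *JUN*, 101 in *MYC*, 84.8 in *FOSL1* and 81.4 in *IER3*. In CDS it was 80.9 in *EGR1*, 65.9 in *MYC*, 19.6 in *FOSL1*, 9.17 in *FOSL2* and 5.02 in *JUN*. The densities were closest in *FOSL2*, with 12.3 tags per kb of 3'UTR. That value divides the tags of the named clusters by the full 3'UTR length of 4869 nt. It leaves out the 202 tags of the 13 downstream clusters with no gene, so the rank of *FOSL2* depends on the labels. For *MYC* the model 3'UTR is 1993 nt long, while its 3'UTR clusters all lie between 128822467 and 128822860 (hg18). A shorter 3'UTR would raise the *MYC* density, so its rank depends on the transcript model. In replicate 1 *MYC* had 22.1 CPM per kb of 3'UTR and 17.6 per kb of CDS. *FOS*, *JUNB*, *JUND*, *ATF3* and *IER3* had no cluster labelled CDS alone, and the coding tags of *IER3* are in clusters with a double label, which were left out. The medians over the 10 genes were 69.2 tags per kb of 3'UTR and 2.51 per kb of CDS, against 33.5 and 6.77 over the 6296 genes. The lengths are of current transcript models, and how far they differ from the annotation behind the labels was not tested.

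**Figure D4:**
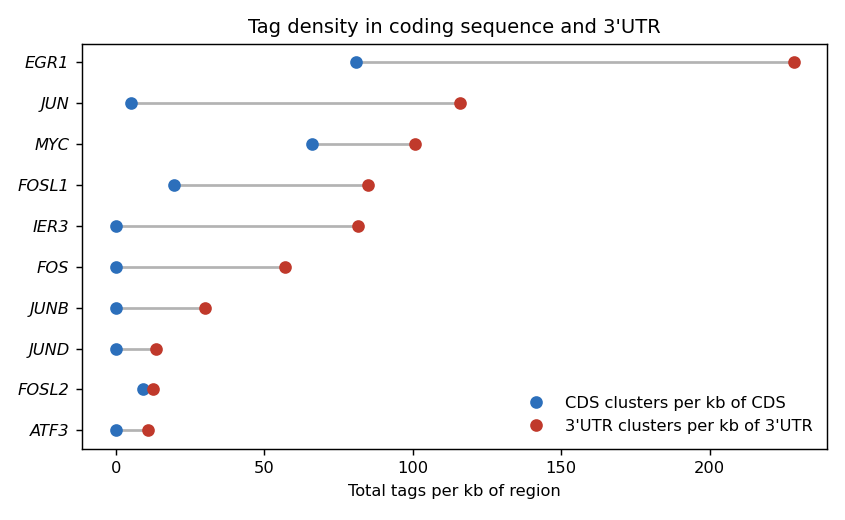
Total tags per kb of region (x axis, linear) for the 10 genes (y axis), with clusters labelled 3'UTR per kb of 3'UTR in red and clusters labelled CDS per kb of CDS in blue; clusters with a double label are left out. The 3'UTR point lies to the right of the CDS point in every gene, from 228 against 80.9 in EGR1 to 12.3 against 9.17 in FOSL2. The downstream clusters with no gene beyond FOSL2 are left out, and the place of MYC depends on the 3'UTR length of its transcript model.

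A wider list of 89 related genes gave the setting, of which 52 had a cluster, beside 36.2% of RefSeq protein-coding genes. More than 100 tags in clusters of at least 10 tags were found in 4 of 11 other AP-1 and related bZIP genes with a cluster, in 4 of 8 genes of the MYC and MAX network, and in 18 of 33 other immediate early genes, beside 39.9% of all genes. In the bZIP group the most tags were in *ATF6*, a sensor of endoplasmic reticulum stress, with 1694, then *ATF2* with 1410 and *CREB1*, the cyclic AMP response factor, with 1119. Per transcript length, *ATF2* reached 59.7 ± 3.80 CPM per kb, *ATF6* 33.4 ± 2.80 and *CREB1* 17.4 ± 0.858 (SD, n = 2 each). *FOSB*, the remaining FOS family gene, had 1 cluster of 5 tags.

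In the MYC and MAX network, *MGA* had 1269 tags, *MXD1* 965 and *MYCBP2* 425. Introns held 63.8% of the *MYCBP2* tags, against 5.12% in *MGA* and 0% in *MXD1*. MGA and MXD1 are MAX partners that repress where MYC activates, and MYCBP2 is a ubiquitin ligase. Per transcript length *MXD1* reached 40.1 ± 1.95, *MGA* 21.8 ± 1.02 and *MYCBP2* 2.39 ± 0.185 CPM per kb (SD, n = 2 each). With the transcript models used, *MXD1* and *MGA* were above both replicate values of *MYC*. For *MGA* the margin was small, with 21.1 in its lower replicate against 20.7 in the higher replicate of *MYC*. *MAX* itself had 88 tags. Among the other immediate early genes, *PHLDA1* had 7990 tags and *CYR61*, a matrix signalling protein, 4064. Per transcript length these reached 291 ± 25.6 and 391 ± 15.9 CPM per kb (SD, n = 2 each), against 27.5 ± 5.52 in *EGR1*, the highest of the 10 genes with the transcript models used. The split between the libraries passed the exact binomial test in 2 of the 52 genes, beside 1.52% of all genes. These were *ATF6* (adjusted p = 0.0157 in the exact test) and *PHLDA1* (adjusted p = 0.00907 in the exact test).

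**Figure D5:**
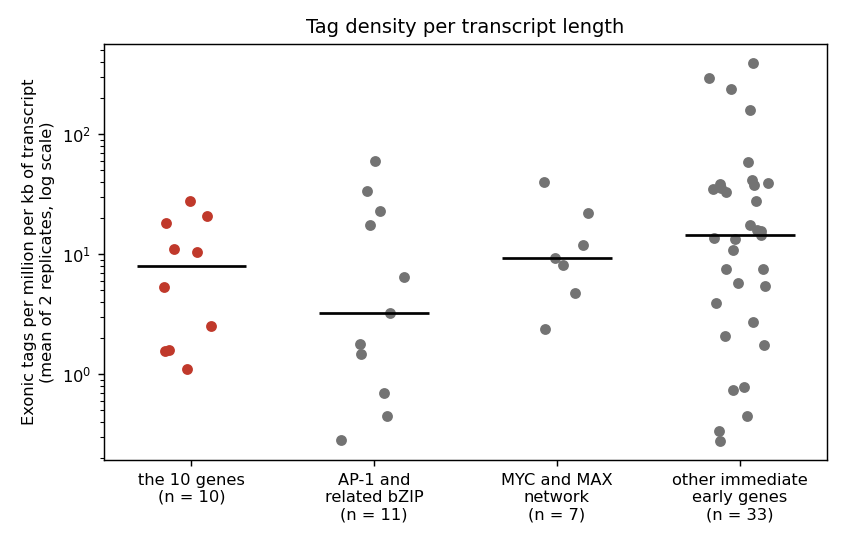
Exonic tags in CPM per kb of transcript (y axis, log scale, mean of 2 replicates), 1 point per gene, for the 10 genes in red and the 3 groups of the wider list in grey, with a line at each median. The medians are 7.91 for the 10 genes, 3.24 for other AP-1 and related bZIP genes, 9.36 for the MYC and MAX network and 14.4 for other immediate early genes.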

How the data were processed

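HITS-CLIP was analysed in 2 replicates of 1 group. The deposited values are counts of unique tags per cluster, which the authors obtained by collapsing reads on a degenerate barcode and grouping overlapping tags, with 1 column per replicate and another for the total. The submitters' processing notes name Novoalign and the build hg18, with no version. Every cluster had at least 5 tags in total and at least 1 in each replicate, so column sums are not library depths. Entrez IDs and symbols are those of the table; 14 IDs had no symbol. Tags were summed over clusters of a gene and scaled to 1000000 tags of the replicate in the table (CPM). Lengths and letters of transcripts came from GENCODE 44 on GRCh37 (canonical coding transcripts, 7197 of 7712 genes matched), and no coordinates were set across builds. Cluster positions are as listed, and whether they count from 0 or 1 is not known.

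The split between libraries was tested with an exact binomial test, checked on simulated data (scipy 1.17.1, Python 3.11.15). Changes of 4-fold in the odds of the split, planted in features of at least 100 tags, were recovered in 185 of 200 clusters and 199 of 200 genes. Of unchanged features, 0 clusters and 6 genes were called. Smaller changes, smaller features, which include all but 1 of the 62 clusters, and the minimum of 1 tag per replicate were not covered by this check. Intervals are Wilson intervals at 95% for counting error only; the study describes binding in both replicates as biological reproducibility, but whether they came from separate cultures is not stated in the sources used here. The replicate columns exceeded the total column in 12 of the 62 clusters, by 17 tags in all. Named were all 10 genes with their clusters, in full up to 5 and otherwise mainly the 3 largest, the 3 genes with the most tags in each group of the wider list (1 of them is not reported here), and *FOSB* and *MAX*, chosen after their values were seen. The genes and lists were chosen with earlier results of these data known. Alternatives were tag minimums, the sum of the replicate columns, label rules, single libraries, expected shares and a beta-binomial test.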

Additional observations from a re-analysis of the deposited data

Results flagged for a closer look

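In clusters that carry no gene, and so enter none of the counts per gene, 202 tags lay downstream of *FOSL2* on its strand, in 13 clusters with tags in both libraries. Another 51 tags lay on the strand opposite to *JUN*, in 7 small clusters labelled upstream of a gene or deep intergenic. Of these tags 37.3% came from replicate 1 (25.3 to 51.0, Wilson 95% interval), against 22.3% over all clusters. The minimum of 1 tag in each replicate raises the replicate 1 share most in small clusters. The shares are therefore not like for like, and no difference between the libraries is read from them. Both drew attention because they are signal outside the clusters with a symbol. They had 37 and 19 tags in replicate 1. Clusters without a gene were common, since 170251 of the 233546 clusters carried one. Downstream clusters with no gene were found for 1716 of the 7712 genes. The clusters beside *JUN*, with 5 to 9 tags, were near the median of 8 tags over all clusters.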

How the results depend on the processing

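With at least 10 tags per cluster the 10 genes held 1130 tags, of which 74.7% were in 3'UTRs, and 9 genes kept a cluster. At least 30 tags left 5 genes and 604 tags. Taking clusters with 3'UTR among their labels raised the share to 75.4%. Clusters of at least 30 tags alone left 2 genes with more than 100 tags, and 9 genes had more than 100 tags per kb of cluster. The share of all genes past 100 on that scale was not counted. *FOSL2*, the lowest of the 9 with 119, was above 52.7% of all genes, so the count does not set the 10 genes apart. Chosen after the data were seen, adding the unnamed *FOSL2* clusters gave 1477 tags and 5 genes with more than 100 tags, and leaving out *EGR1* and *MYC* gave a 3'UTR share of 81.2%. With each replicate left out in turn, with no test, the number of genes with a cluster ranged from 7 to 10, the tags from 166 to 1002, the share in 3'UTRs between 67.5% and 73.8%, and the genes with more than 100 tags from 0 to 3, replicate 1 alone giving the lowest value each time. Only clusters with at least 5 tags in the remaining library were kept, so replicate 1 alone gave 166 of its 255 tags. For the genes with more than 100 tags that minimum was 10. A fixed minimum is stricter in the smaller library by construction. Summing the replicate columns left the tags, the 3'UTR share and the number of genes with more than 100 tags within their limits. The counts of genes and clusters whose split differed between the libraries were 0 under each of the 4 other settings. Of the tags per gene, 4 of 10 moved by more than the spread between replicates at 10 tags per cluster, and 10 of 10 at 30 and without either replicate (*EGR1* 57 and *MYC* 64 tags without replicate 2). These are sums not scaled to depth, so a fall without a replicate was fixed in advance. No paired analysis was possible because no second group was measured. The depth of replicate 1, with 255 tags over the 10 genes, limits statements on single clusters.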
